A study of Salmo salar with 8 samples.

Results

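Among single Atlantic salmon (Salmo salar) eggs exposed to road salt, a small set of transcripts differed strongly from egg to egg, and it is these transcripts that are described here. The members were 397 array probes. A probe was eligible if its signal was well above background on all 8 arrays, which held for 27486 of 55468 probes (49.6%). Of the eligible probes, 1.44% were members, because their second-highest minus their second-lowest value over the 4 salt eggs exceeded 1 on the log2 scale. This difference is called the salt gap, and the same measure over the 4 control eggs is called the control gap. With 4 eggs, a gap above 1 means that the lower of the 2 high eggs stood more than 2-fold above the higher of the 2 low eggs. The members were thus chosen by their values in the salt eggs, and the salt gap is given only as a description.

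The tested eggs were kept from fertilisation for 24 h in water with road salt, a de-icing agent that is mostly sodium chloride, at 5000 mg/L (salt eggs 1, 3, 5 and 6). The control eggs were kept for the same 24 h in the lake water without it (control eggs 2, 3, 4 and 5). Each egg was extracted singly and hybridised to 1 single-colour Agilent array, so the eggs are separate samples. The labels do not say whether they shared parents or a vessel, and they give no strain. The labels call the tissue embryo. Their titles name the eyed stage although the exposure ended earlier in development, which leaves the age at collection unsettled. Neither could be checked against marker genes: the files give no gene for an array target, and 0 of the 396 target names of the members matched a reference table of 65341 salmon genes.

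As background, the RNA of a fish egg just after fertilisation is laid down by the mother, and the embryo's own genome is switched on only later, while maternal transcripts are cleared. An egg at the eyed stage holds an embryo with visible eye pigment and many differentiated tissues. A whole-egg extract mixes the RNA of all of these, so fewer cells of a type and less RNA per cell cannot be told apart in any of the values below.

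The 8 arrays lay on 2 slides, each with 2 salt and 2 control eggs. Slide 1 carried salt eggs 1 and 3 and control eggs 2 and 3, and slide 2 carried salt eggs 5 and 6 and control eggs 4 and 5. Levels are log2 processed signals relative to the array's own 75th percentile, which was 103 to 167 intensity units for the salt arrays and 87.6 to 163 for the control arrays. The share of all probes well above background ranged from 55.5% to 65.6% on salt arrays and from 55.7% to 63.4% on control arrays. Among eligible probes the median salt gap was 0.10 and the median control gap 0.21.

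The members had a median salt gap of 1.37, with a range of 1.001 to 3.78. Just inside the threshold stood CUST_6179 and CUST_31569, with salt gaps of 1.001 and 1.002, and just outside it CUST_7137 with 0.999 and CUST_45792 with 0.997. All 397 members had passed the filter on dim probes, as the rule required. They had 396 distinct target names. Whether targets of different names belong to the same transcript could not be checked, since none was matched to a gene. Targets named only by a number made up 244 of the members (61.5%), against 71.5% of eligible probes. Names beginning with OM_UG made up 120 of the members (30.2%), against 20.6% of eligible probes, and names beginning with SS_UG 30 (7.56%), against 7.27%. The antisense-named class held 3 members (0.756%), against 0.600% of eligible probes.

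The members did not all vary in the same eggs. Sorted by the 2 salt eggs in which they were highest, 202 members (50.9%) were highest in salt eggs 3 and 5, 75 in salt eggs 1 and 3, 56 in salt eggs 1 and 6, and 51 in salt eggs 5 and 6. Only 8 were highest in salt eggs 3 and 6 and 5 in salt eggs 1 and 5. Salt eggs 3 and 5 lay on different slides, so the split that held most members was not the split between slides among the salt eggs. The groups highest in salt eggs 1 and 3, or in salt eggs 5 and 6, followed the slide. The groups were formed from the values that the rule used, and their levels in salt eggs are descriptions.

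**Figure D1:**
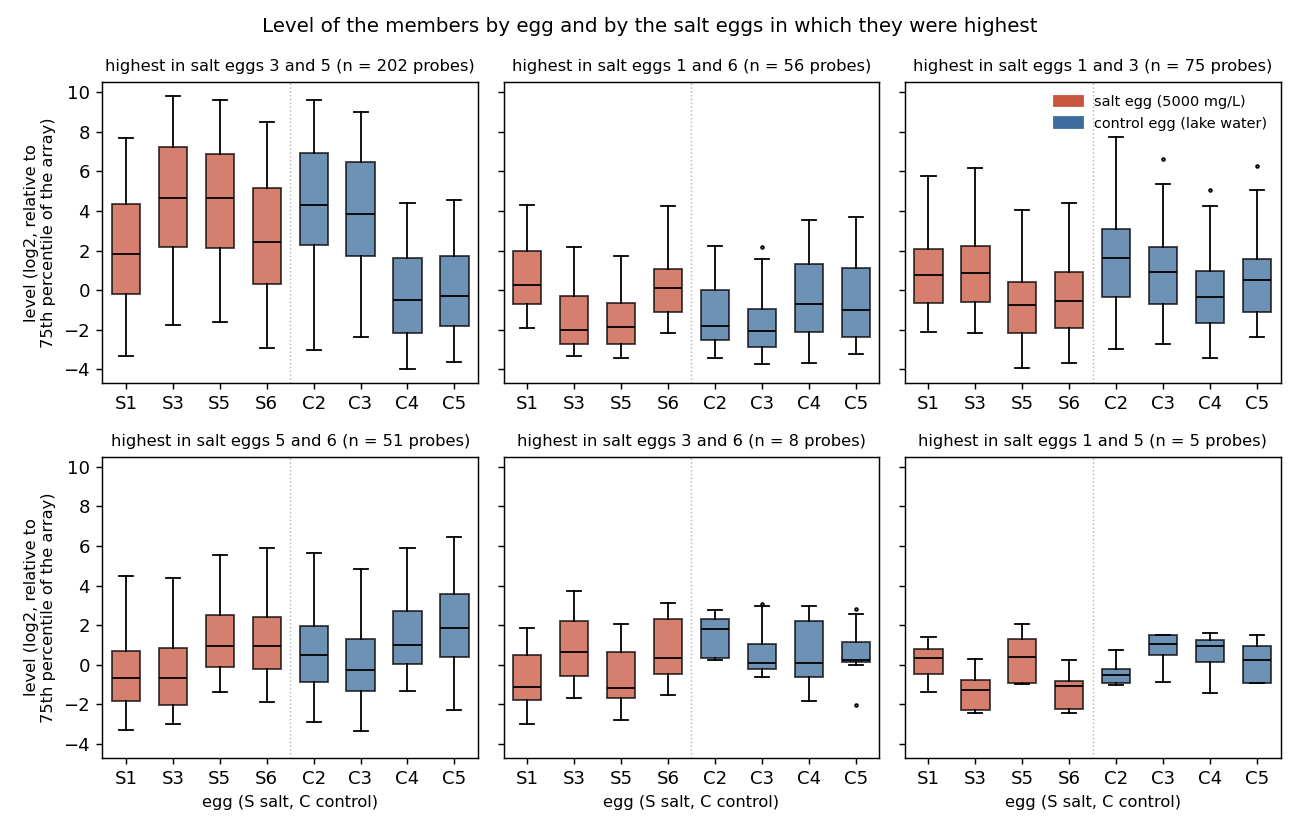
Level of the members in each egg (log2, relative to the 75th percentile of the array), salt eggs left and control eggs right, with 1 panel for each pair of salt eggs in which members were highest; boxes span the quartiles with the median, whiskers reach to 1.5 times the box and points lie beyond. In the panel of 202 probes the median is 4.67 and 4.66 in salt eggs 3 and 5 while the control eggs lie at 4.31 (egg 2), 3.82 (egg 3), -0.49 (egg 4) and -0.27 (egg 5).

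The 202 members highest in salt eggs 3 and 5 varied most. Their median level was 4.67 and 4.66 in salt eggs 3 and 5, and 1.85 and 2.45 in salt eggs 1 and 6. In control eggs, which the level rule did not use, it was 4.31 in egg 2, 3.82 in egg 3, -0.49 in egg 4 and -0.27 in egg 5. The 8 eggs thus formed 3 levels: salt eggs 3 and 5 with control eggs 2 and 3 at the top, salt eggs 1 and 6 in between, and control eggs 4 and 5 at the bottom. For 194 of the 202 members, salt eggs 3 and 5 and control eggs 2 and 3 all stood above the other 4 eggs. For 173 of these, salt eggs 1 and 6 in addition both stood above control eggs 4 and 5. Salt eggs 3 and 5 stood above salt eggs 1 and 6 by the way the group was formed, so only the place of the control eggs was free. Control eggs 2 and 3 both stood above control eggs 4 and 5 for 195 of the 202 (96.5%), against a background of 18.2% of eligible probes. Most eligible probes varied little, however. Among the 646 with a control gap over 1, which include 185 of these members, the same held for 427 (66.1%). The counts of 194 and 173 were not taken over all eligible probes.

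Within these levels the order of the eggs was shared in part. Salt egg 6 stood above salt egg 1 for 188 of the 202 members, control egg 2 above control egg 3 for 194, and control egg 5 above control egg 4 for 158. Salt egg 3 stood above salt egg 5 for only 123, and the most frequent full order of the 8 eggs was that of 48 members. These counts describe probes of the same 8 RNA samples, and the probes are not independent of each other. They were not taken over all eligible probes, so they have no background.

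The boxes by egg show the same order as the signal these members carried. Summed over the 202 probes, they held 1.85%, 9.43%, 8.51% and 3.24% of the probe signal of the array in salt eggs 1, 3, 5 and 6. In control eggs 2, 3, 4 and 5 they held 8.26%, 6.15%, 0.197% and 0.244%. The share was lowest in control eggs 4 and 5, both on slide 2, and every salt egg held more than these. Each of the other groups held at most 0.311% of the signal in any egg. Signal shares are shares of fluorescence, not of RNA molecules.

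**Figure D2:**
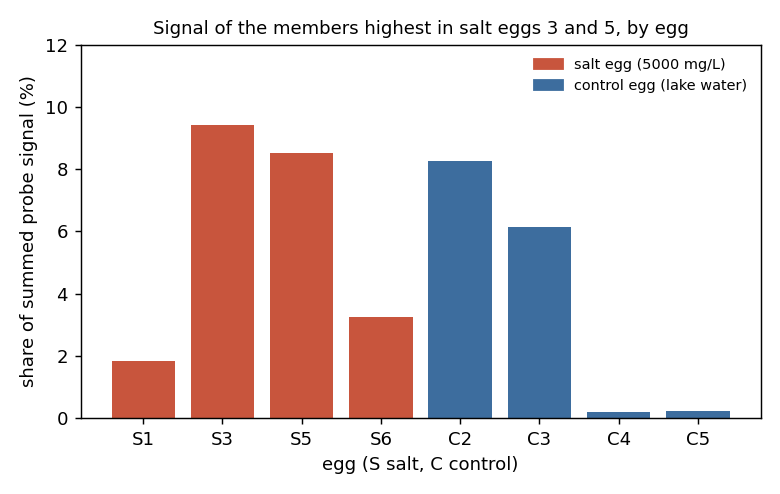
Share of the summed probe signal of each array (%) carried by the 202 members highest in salt eggs 3 and 5, with salt eggs left and control eggs right and 1 bar per egg. The bars reach 9.43% in salt egg 3 and 8.26% in control egg 2, and 0.197% in control egg 4.

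CUST_52151 (target OM_UG27_56297663) was picked, after its values were seen, as the member whose pattern over the salt eggs had the lowest summed distance to those of the rest of the group. Its level was 6.38, 8.99, 8.80 and 7.04 in salt eggs 1, 3, 5 and 6, and 8.47, 8.09, 3.44 and 3.91 in control eggs 2, 3, 4 and 5. Control eggs 4 and 5 were lowest and salt eggs 1 and 6 lay between them and the rest, so the 2 groups overlapped.

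CUST_35150 (target 5697614) had a salt gap of 3.15, among the 2 largest of the group. It stood at 1.18, 5.30, 5.26 and 2.12 in salt eggs 1, 3, 5 and 6, and at 4.85, 4.25, -2.47 and -2.26 in control eggs 2, 3, 4 and 5. Again salt eggs 3 and 5 lay beside control eggs 2 and 3, and control eggs 4 and 5 lay lowest. CUST_20331 (target 5647375), with the largest salt gap of the group at 3.38, did not share this order in control eggs. It stood at -2.14, 2.37, 1.23 and -2.63 in salt eggs 1, 3, 5 and 6, and at 0.56, -2.09, 2.46 and -2.41 in control eggs 2, 3, 4 and 5. Control eggs 2 and 4, on different slides, were its high ones.

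The largest control gaps of all members belonged to CUST_54264 (target SS_UG_47625852, 8.69) and CUST_46658 (target OM_UG27_56247822, 8.39). CUST_54264 stood at 3.23, 6.96, 6.57 and 4.59 in salt eggs 1, 3, 5 and 6, and at 6.65, 6.02, -2.77 and -2.66 in control eggs 2, 3, 4 and 5. CUST_46658 stood at 4.90, 8.45, 8.10 and 6.04 in salt eggs 1, 3, 5 and 6, and at 7.98, 7.502, -1.56 and -0.89 in control eggs 2, 3, 4 and 5. For both probes all 4 salt eggs lay within the range of the control eggs or just above it, and the step was between control eggs of different slides.

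**Figure D3:**
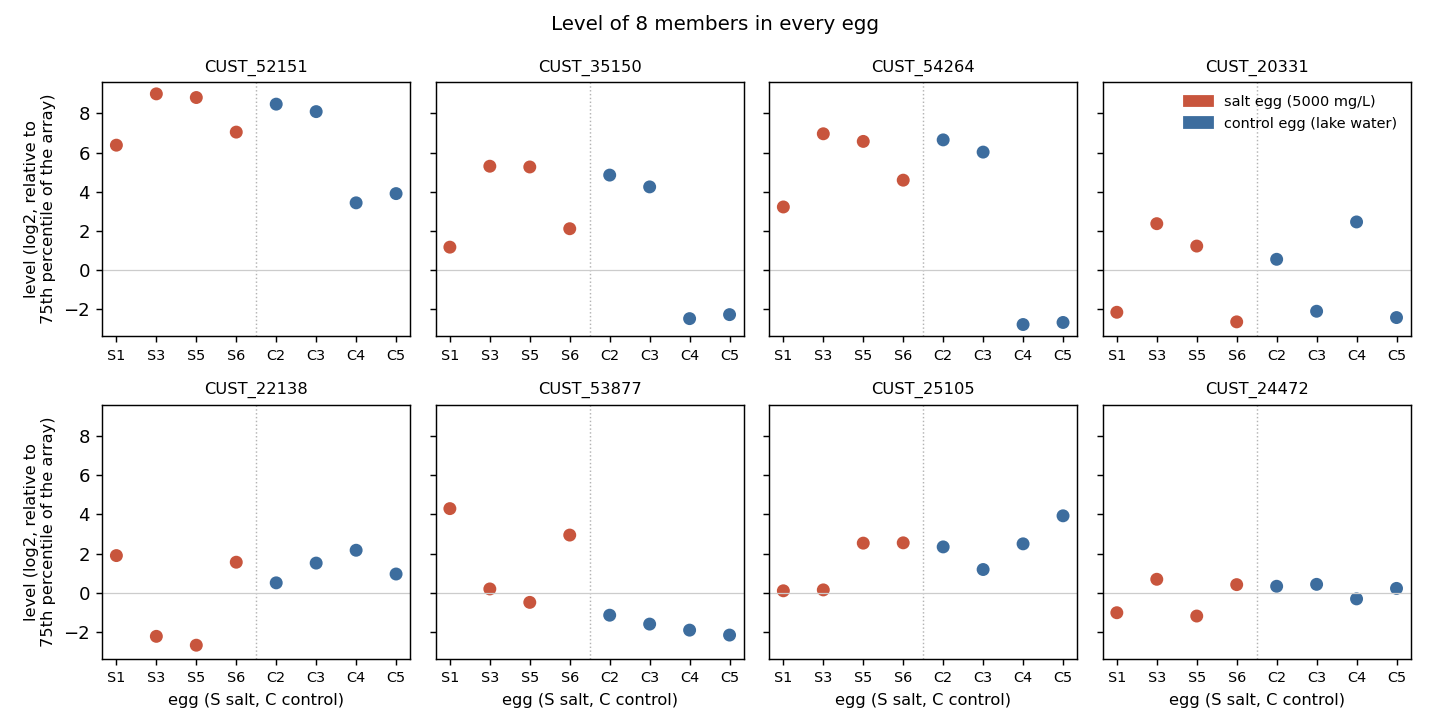
Level of 8 members in each egg (log2, relative to the 75th percentile of the array), 1 point per egg, salt eggs left and control eggs right in each panel. For CUST_52151, CUST_35150 and CUST_54264, salt eggs 3 and 5 and control eggs 2 and 3 lie above the other 4 eggs and control eggs 4 and 5 lie lowest. CUST_20331 and CUST_22138 have other high and low control eggs.

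The members' variation could be tested in the control eggs, since these had not entered the level rule. The rule did require a signal above background in them, which limits how low a member could fall there. The first question was whether members varied more among control eggs than typical probes of the same mean level. The variance of each eligible probe over the 4 control eggs was set against limma's robust, trended prior in a one-sided F test with Benjamini-Hochberg adjustment. At an adjusted p under 0.05 it called 175 of the 397 members, while the background was 1.48% of eligible probes (406 of 27486). Of those 175, 162 were highest in salt eggs 3 and 5, 7 in salt eggs 1 and 6, 4 in salt eggs 5 and 6, and 2 in salt eggs 3 and 6. The count fell to 0 when the prior was not robust, and to 0 when only the spread within slides was used. Under both settings 0 of the 27486 eligible probes were called, so neither could set members apart from other probes.

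CUST_46658 had an SD of 5.19 over the 4 control eggs (limma adjusted p = 8.11e-04). CUST_35150 had an SD of 4.001, where typical probes of its level had 0.39 (limma adjusted p = 0.00175), and CUST_20331 an SD of 2.31 (limma adjusted p = 0.00651). CUST_22138, the member with the largest salt gap of all, had an SD of 0.72 in control eggs (limma adjusted p = 0.878).

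The control gap gave a picture without a test. It exceeded 1 for 231 of the 397 members (58.2%), against a background of 2.35% of eligible probes. These 231 were 35.8% of the 646 eligible probes with a control gap over 1. It exceeded 1 for 185 of the 202 members highest in salt eggs 3 and 5, for 21 of 56 highest in salt eggs 1 and 6, and for 16 of 51 highest in salt eggs 5 and 6. The count was 9 of 75 for members highest in salt eggs 1 and 3, and 0 of 8 and 0 of 5 in the smallest groups. The median control gap of the 202 was 4.27, or 19.3-fold, with a range of 0.13 to 8.69. A control gap over 4 was found for 132 eligible probes, 114 of them members, and every one of those 114 was highest in salt eggs 3 and 5.

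The second question was whether members split the control eggs along the slides. In limma, slide 2 (control eggs 4 and 5) differed from slide 1 (control eggs 2 and 3) at an adjusted p under 0.05 for 195 of the 397 members. The background was 1.08% of eligible probes (297 of 27486). On slide 2, 172 of the members were lower, where the background was 0.913%, and 23 were higher, where it was 0.167%. With 2 eggs a slide, the slide cannot be told apart from any other property that set control eggs 4 and 5 apart from control eggs 2 and 3.

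The largest group held 171 of these 172 lower calls. Of the 202 members highest in salt eggs 3 and 5, 171 (84.7%) were lower in control eggs 4 and 5 (background 0.913%). Of the rest, 0 were called higher (background 0.167%) and 31 were not called. The median difference was -4.76, or 27.2-fold lower on slide 2, with a range of -9.05 to 0.79. CUST_46658 was 499-fold lower in control eggs 4 and 5 than in control eggs 2 and 3 (log2 difference -8.96, limma adjusted p = 1.33e-04). CUST_52151 was 24.3-fold lower (log2 difference -4.61, limma adjusted p = 2.01e-04). CUST_20331, whose high control eggs lay on both slides, had a difference of 0.79 (limma adjusted p = 0.792).

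Within a slide, the salt eggs differed for the same members by the rule's own choice. Salt egg 3 stood above salt egg 1, both on slide 1, by a median of 2.63 (6.18-fold, range 1.01 to 4.59). Salt egg 5 stood above salt egg 6, both on slide 2, by a median of 1.80 (3.48-fold, range 1.01 to 3.86).

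**Figure D4:**
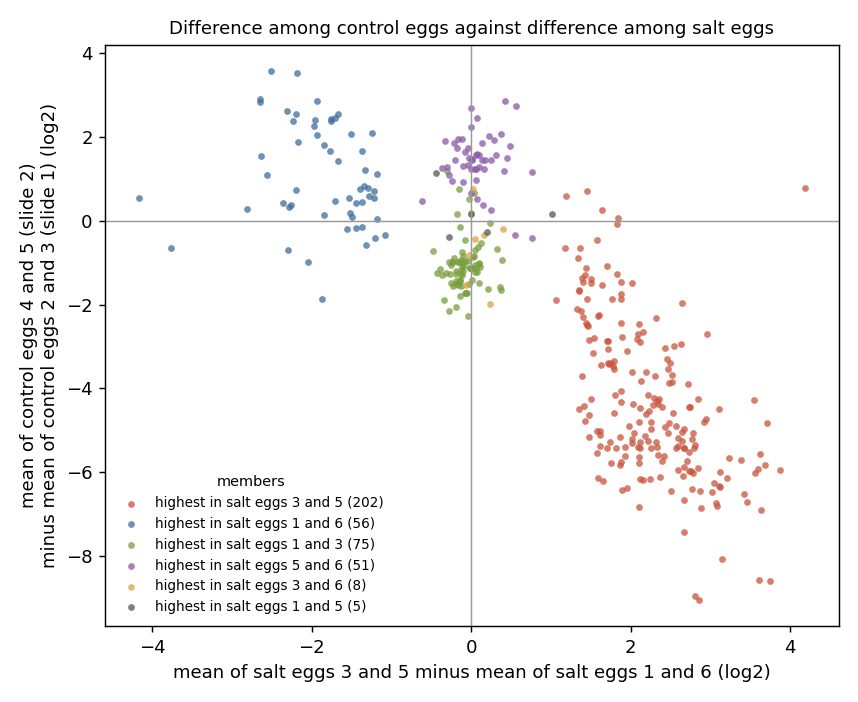
Each point is a member, with the mean of salt eggs 3 and 5 minus the mean of salt eggs 1 and 6 across and the mean of control eggs 4 and 5 minus the mean of control eggs 2 and 3 up (both log2). Colours give the salt eggs in which it was highest. The rule kept members highest in salt eggs 3 and 5, or in 1 and 6, away from 0 across. It did not do so for the other members, and it did not fix the values up. The 202 members highest in salt eggs 3 and 5 reach down to -9.05, while 46 of 56 members highest in salt eggs 1 and 6 lie above 0. Of all eligible probes, which are not drawn, 16619 of 27486 had a value above 0.

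The 56 members highest in salt eggs 1 and 6 ran the other way. Their median level was 0.28 and 0.11 in salt eggs 1 and 6, and -1.997 and -1.85 in salt eggs 3 and 5. In control eggs it was -1.79 in egg 2, -2.06 in egg 3, -0.72 in egg 4 and -1.001 in egg 5. In limma 14 of the 56 were higher and 0 lower in control eggs 4 and 5 than in control eggs 2 and 3. The background was 0.167% of eligible probes higher and 0.913% lower. The median slide difference was 0.77, with 46 of 56 positive, where the background was 16619 of 27486 eligible probes. Both control eggs of slide 2 stood above both of slide 1 for 35 of the 56 (62.5%), against a background of 32.2% of eligible probes.

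CUST_22138 (target 5650064) had the largest salt gap of all members, 3.78. It stood at 1.90, -2.21, -2.67 and 1.57 in salt eggs 1, 3, 5 and 6, and at 0.51, 1.52, 2.18 and 0.96 in control eggs 2, 3, 4 and 5. All control eggs stood above salt eggs 3 and 5, so the step was seen among salt eggs alone. CUST_53877 (target SS_UG_35681486) stood at 4.30, 0.20, -0.48 and 2.95 in salt eggs 1, 3, 5 and 6, and at -1.14, -1.59, -1.90 and -2.15 in control eggs 2, 3, 4 and 5. Every salt egg lay above every control egg. CUST_8878 (target 5617928) had the smallest control gap of all members, 0.0082, although its control eggs ran from -3.44 to -0.35, because only the middle values enter the gap.

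The median control gap was 0.54 in the 75 members highest in salt eggs 1 and 3 and 0.69 in the 51 highest in salt eggs 5 and 6. It was 0.53, 0.26 and 0.54 in the groups of 56, 8 and 5, so that the group of 202, at 4.27, stood alone. The 75 members highest in salt eggs 1 and 3 had medians of 0.75 and 0.89 in those eggs, and -0.76 and -0.56 in salt eggs 5 and 6. In control eggs the medians were 1.62 in egg 2, 0.89 in egg 3, -0.36 in egg 4 and 0.50 in egg 5. Control eggs 2 and 3, also on slide 1, both stood above control eggs 4 and 5 for 64 of the 75 (85.3%), against a background of 18.2% of eligible probes. The median slide difference was -1.14, with a lowest value of -2.27. In limma 1 of the 75 (CUST_14800) was called lower on slide 2 (1.33%, background 0.913%). In simulated eggs with slide differences of 2, this test found 0 of 200 such probes. With simulated differences of 4 it found 189. The simulated spread was drawn from the whole spread among control eggs, slide differences included, so it need not match the test's own error. Among these 75, the test called CUST_14800 at -2.16 (limma adjusted p = 0.0474) but not CUST_208 at -2.27 (limma adjusted p = 0.0790). The low share therefore cannot show that these members lacked a slide difference.

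CUST_24076 (target 5654823), with the largest salt gap of these 75 at 1.95, did not follow the slide in control eggs. It stood at -0.19, 0.06, -2.14 and -2.36 in salt eggs 1, 3, 5 and 6, and at 0.06, -2.07, -2.54 and 0.43 in control eggs 2, 3, 4 and 5. Its high control eggs, 2 and 5, were on different slides. CUST_208 (target 5408718) stood at -0.05, 0.16, -2.14 and -1.84 in salt eggs 1, 3, 5 and 6, and at 0.99, 0.33, -2.19 and -1.03 in control eggs 2, 3, 4 and 5. It was high on slide 1 throughout, but its control difference of -2.27 did not pass the test (limma adjusted p = 0.0790).

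The 51 members highest in salt eggs 5 and 6 mirrored them. Their median level was 0.97 and 0.95 in those eggs, and -0.66 and -0.64 in salt eggs 1 and 3. In control eggs it was 0.48 in egg 2, -0.28 in egg 3, 1.01 in egg 4 and 1.86 in egg 5. Control eggs 4 and 5 both stood above control eggs 2 and 3 for 41 of the 51 (80.4%), where the background was 32.2%. The median slide difference was 1.46, and limma called 9 of the 51 higher and 0 lower on slide 2. Over eligible probes these shares were 0.167% higher and 0.913% lower.

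CUST_25105 (target 5661284) had the largest salt gap of these 51, 2.38. It stood at 0.11, 0.15, 2.54 and 2.55 in salt eggs 1, 3, 5 and 6, and at 2.35, 1.19, 2.50 and 3.93 in control eggs 2, 3, 4 and 5. All control eggs stood above salt eggs 1 and 3. CUST_53246 (target SS_UG_32011611) stood at -2.45, -2.21, 0.16 and 0.11 in salt eggs 1, 3, 5 and 6, and at 0.19, -2.94, 0.31 and -2.29 in control eggs 2, 3, 4 and 5. Its control eggs fell into a high and a low pair that crossed the slides.

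The 8 members highest in salt eggs 3 and 6 included a pair of probes for the same target, 5658465. CUST_24472 stood at -1.01, 0.69, -1.18 and 0.42 in salt eggs 1, 3, 5 and 6, and at 0.34, 0.44, -0.30 and 0.23 in control eggs 2, 3, 4 and 5. CUST_40_PI426552874, printed in 10 spots, stood at -1.19, 0.58, -1.14 and 0.30 in salt eggs 1, 3, 5 and 6, and at 0.25, 0.38, -0.33 and 0.26 in control eggs 2, 3, 4 and 5. The 2 probes had the same high pair and low pair of salt eggs, with salt gaps of 1.43 and 1.44, and for both all control eggs lay within the range of the salt eggs. CUST_24205 (target 5655828) had the largest salt gap of the 8, 1.76. It stood at 0.05, 1.98, 0.22 and 2.09 in salt eggs 1, 3, 5 and 6, and at 1.46, -0.21, 2.09 and 0.67 in control eggs 2, 3, 4 and 5.

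Of the 5 members highest in salt eggs 1 and 5, CUST_23389 (target 5651952) stood at 0.82, -1.25, 0.38 and -0.80 in salt eggs 1, 3, 5 and 6. In control eggs 2, 3, 4 and 5 it stood at -1.03, 1.52, 1.26 and 1.52, so that a single control egg was low. CUST_22603 (target 5650753) stood at -0.44, -2.29, -0.92 and -2.20 in salt eggs 1, 3, 5 and 6, and at -0.49, 0.48, 0.16 and -0.93 in control eggs 2, 3, 4 and 5. Neither of these small groups had a member called for slide (background 1.08%). Their slide differences ran from -1.98 to 0.76 in the 8 members and from -0.38 to 1.14 in the 5. The slide test found 0 of 200 probes with a simulated difference of 2, under the limit of the simulation given above. Among measured members it called CUST_14800 at -2.16 but not CUST_208 at -2.27. The missing calls at these smaller differences therefore decide nothing.

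Repeated spots give the error within an array. For the 34 members with more than 1 spot, the median SD between spots of an array was 0.091 on the log2 scale, against 0.095 over eligible probes. It was under 0.5 for 94.5% of the values and reached 1.68.

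Co-variation was also tested against single lead probes. For each way of splitting the salt eggs into pairs, the lead was the member with the largest salt gap, and limma fitted the slope of every other eligible probe on it over the 4 control eggs. With CUST_22138 as lead for the split of salt eggs 3 and 5 from 1 and 6, 0 of 257 other members were called (limma, background 0%), although 236 had the sign they shared in salt eggs. At an unadjusted p under 0.05, 8 members had the shared and 3 the opposite sign, beside 17.6% of all probes. The lead itself had an SD of 0.72 in control eggs, against 2.67 for CUST_52151. Its mean in control eggs was 0.55 higher on slide 2, so its count of shared sign is not separate from the slide. CUST_20331, the next lead, also gave 0 calls (limma, background 0%), and 33 of 257 members had the shared sign. Counts of shared sign, for these and the later leads, were not taken over all eligible probes and have no background. At an unadjusted p under 0.05 there were 1 with the shared and 2 with the opposite sign, beside 0.986% of all probes.

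With CUST_52151 at the centre of the largest group as lead, limma called 175 of the 257 members with the shared sign and 0 with the opposite one, where the background was 1.04% of probes. This lead was chosen after seeing the data, and its control eggs had the same split by slide as the members, so the count repeats the slide result and is no separate support. The choice of lead therefore decided this test. For the split of salt eggs 1 and 3 from 5 and 6, CUST_25105 gave 0 calls among 125 members (limma, background 0%), with 40 of shared and 1 of opposite sign at an unadjusted p under 0.05, beside 2.67% of all probes. CUST_53246, the next lead of this split, also gave 0 calls (limma, background 0%). At an unadjusted p under 0.05 it gave 3 of shared and 1 of opposite sign, beside 0.600% of all probes. The shared sign was found for 111 of 125 members with CUST_25105 and for 90 with CUST_53246. Both control eggs of CUST_25105 on slide 2 (2.50 and 3.93) stood above both on slide 1 (2.35 and 1.19). The counts with CUST_25105 are therefore not separate from the slide. CUST_687, likewise chosen afterwards at the centre of that split's larger group, gave 7 calls, where the background was 0.451%. At an unadjusted p under 0.05 it gave 77 of shared and 0 of opposite sign, beside 29.4% of all probes. Both its control eggs on slide 1 (-0.98 and -1.64) stood above both on slide 2 (-2.88 and -2.34), so these counts are not separate from the slide either. For the split of salt eggs 3 and 6 from 1 and 5, CUST_24205 gave 0 calls among 12 members (limma, background 0%). At an unadjusted p under 0.05 it gave 0, beside 1.06% of all probes. CUST_40_PI426552874, the next lead of this split, gave 0 calls (limma, background 0.106%). At an unadjusted p under 0.05 there were 1 of shared and 1 of opposite sign, beside 8.52% of all probes.

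Salt and control eggs were then compared directly for the members. The rule chose probes with a large spread among salt eggs, and this spread enters the error of the comparison, so calls are harder to reach for members than for other probes. In limma 0 of the 397 members passed an adjusted p of 0.05 for the difference between salt and control eggs, where the background was 0.921% of the 30940 probes tested. When only the 27486 eligible probes were tested, which share the members' filter, the count was again 0 and the background 0.258%. At an unadjusted p under 0.05 there were 18 members, beside 16.4% of all probes tested. Of these, 11 had a higher mean in salt eggs, all among the members highest in salt eggs 1 and 6, and 7 had a lower mean.

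The median difference over the 202 members highest in salt eggs 3 and 5 was 1.58, with a range of -0.95 to 3.61, and 189 of them had the higher mean in salt eggs. It was 0.34 for members highest in salt eggs 1 and 6, -0.35 for those highest in salt eggs 1 and 3, and -0.59 for those highest in salt eggs 5 and 6. Over all eligible probes it was -0.01. None of these shifts can be read as a call, since 0 members passed the test. The 2 largest differences upward were those of CUST_46658 (3.61, SE 2.15, limma adjusted p = 0.447) and CUST_54264 (3.53, SE 2.17, limma adjusted p = 0.467). The 2 largest downward were those of CUST_5130 (-2.30, SE 0.73, limma adjusted p = 0.173) and CUST_51557 (-2.18, SE 0.74, limma adjusted p = 0.197).

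CUST_5130 (target 5446167) stood at -2.87, -1.68, -2.76 and -1.44 in salt eggs 1, 3, 5 and 6, and at 2.40, -0.64, -1.50 and 0.17 in control eggs 2, 3, 4 and 5. Control egg 4 lay within the range of the salt eggs, and control egg 2 far above the rest. CUST_51557 (target OM_UG27_56292530) had the same high and low eggs, at -2.98, -1.41, -2.60 and -1.51 in salt eggs 1, 3, 5 and 6, and at 2.25, -0.16, -1.84 and -0.03 in control eggs 2, 3, 4 and 5. The groups did not overlap for 6 of the 397 members, where the background was 8.56% of eligible probes. The rule required a wide spread among salt eggs, which makes such a separation rarer, so nothing is drawn from the lower share. All 6 were among the 56 members highest in salt eggs 1 and 6 and had higher values in salt eggs. CUST_53877 was among them, with a difference of 3.43 (SE 0.92, limma adjusted p = 0.118).

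The comparison was also made within each slide. Within slide 2, where salt eggs 5 and 6 were set against control eggs 4 and 5, limma called 85 members higher and 0 lower, and the background was 1.22% of probes. All 85 were highest in salt eggs 3 and 5, a group whose median difference was 4.06 on slide 2 and -0.91 on slide 1. Salt egg 5 on slide 2 and salt egg 3 on slide 1 were high in this group by the rule's own choice. The 85 calls and the 2 medians are not free of that choice and are given as a description. Within slide 1, where salt eggs 1 and 3 were set against control eggs 2 and 3, limma called 0 members (background 0%). At an unadjusted p under 0.05 on slide 1, 7 of the 202 had a lower and 0 a higher mean in salt eggs, where the background was 6.73% lower and 6.32% higher. The difference between the slides was tested as the interaction of group and slide, which passed an adjusted p of 0.05 for 0 members in limma (background 0%). The comparison was thus not shown to differ between slides. At an unadjusted p under 0.05 197 members passed for the interaction, where the background was 8.4% of the 30940 probes tested. The salt values by which the members were chosen enter this count as well.

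Set side by side by level, the 202 members differed little between the high eggs of each group and much between the low ones. The mean of salt eggs 3 and 5 stood above the mean of control eggs 2 and 3 by a median of 0.36 (1.29-fold). The mean of salt eggs 1 and 6 stood above the mean of control eggs 4 and 5 by a median of 2.77 (6.83-fold). These pairs of salt eggs were formed from measured values and the 2 medians carry no test. The range of the control eggs was wider than that of the salt eggs for 185 of the 202 members and for 301 of the 397, and likewise for 21819 of the 27486 eligible probes.

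Some probes short of the threshold were also called for slide in control eggs. Of the 297 eligible probes called for slide in control eggs, 102 were not members, and 79 of these were lower on slide 2. Their salt gaps had a median of 0.66, from 0.02 to 0.996, and 71 exceeded 0.5. For 89 of the 102, the direction in control eggs went with the direction in salt eggs as in the members: lower on slide 2 and higher in salt eggs 3 and 5, or the reverse. The counts of 71 and 89 were not taken over all eligible probes, so they have no background, and whether they are unusual was not tested.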

How the data were processed

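The authors deposited scanner output with 1 green-channel intensity for each of 62976 spots of an array, per the file headers. Agilent Feature Extraction 10.7 produced it, per the submitters' processing notes. Its processed intensity has the background subtracted and is not scaled between arrays, per the file headers. The authors' deposited table of log2 values, whose scaling and centring are not given in the sources used here and whose column medians lay between -0.06 and 0.08, served only as an alternative.

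Control spots and spots with a non-uniformity or population outlier flag (11 to 41 per array) were left out. No spot was saturated. Spots of a probe were averaged as intensity, log2 was taken and the array's 75th percentile subtracted. A probe was above background on an array if at least 1 unflagged spot was. Fits used limma 3.58.1 in R 4.3.3, two-sided except the F test of spread, with Benjamini-Hochberg adjustment over all probes tested and a threshold of 0.05. The comparison of salt with control eggs covered 30940 probes, namely those above background in each egg of the salt group, of the control group or of both. The tests were tried on simulated data, with 200 changed probes each. The spread test found 0 of them at a 3-fold SD, 10 at 5-fold and 126 at 10-fold. The comparison of salt with control eggs found 0 at a difference of 1 and 176 at 2. The simulated lead probe varied more among control eggs than CUST_22138 did. Its recovery therefore does not carry over to that lead, and missing calls do not show that spread or co-variation was absent. The number of arrays limits the precision.

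Named probes are, for each pair of highest salt eggs, the 2 members with the largest salt gap; the lead probes; the 2 largest differences between salt and control eggs in each direction; the largest and smallest control gaps; and the probes beside the threshold. CUST_52151, CUST_687, CUST_14800 and CUST_24472 were chosen after their values were seen. The members, groups and tests were chosen with earlier results of these data known. No sequence of a probe or target was given, and no gene list could be used. Numbers 3 and 5 occur among salt and control eggs alike, but no label links eggs by number.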

Additional observations from a re-analysis of the deposited data

Results flagged for a closer look

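In 53 sets of 4 eggs (levels, shares and array measures of each group), 4 had 1 egg that stood far from the other 3 by Dixon's criterion, where chance gives about 1 in 20. The median level of the 8 members highest in salt eggs 3 and 6 was 1.78 in control egg 2, while control eggs 3, 4 and 5 lay between 0.11 and 0.25. CUST_23389 stood at -1.03 in control egg 2, while control eggs 3, 4 and 5 lay between 1.26 and 1.52. The median SD between duplicate spots was 0.0789 in salt egg 6, and the next salt eggs had 0.0959 to 0.0978. It was 0.0891 in control egg 3, and the remaining control eggs had 0.101 to 0.102.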

How the results depend on the processing

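The number of members was 397. It was 248 with normexp background correction and 1663 without a filter on dim probes. A gap threshold of 0.8 gave 669 and one of 1.5 gave 162. Under the other 7 settings the number stayed within 1.5 times, but the members themselves changed. Of the 397, 240 were kept without scaling, 330 in the authors' table, 343 with median centring and 358 with quantile normalisation. At least 394 were kept under the rest of these 7 settings. Normexp background correction kept 237. For salt against control eggs the count was 0 members in limma. It became 1 with quantile normalisation (background 1.18%), 2 with median centring (1.52%) and 5 without scaling (1.38%). The count was 2 at an adjusted p under 0.10 (2.55%), 18 at an unadjusted p under 0.05 (16.4%) and 1 with slide as a block (1.02%). Within slide 2 it was 85 (1.22%), a count that the choice of members by salt values enters. A trended robust prior (0.805%) and array weights (1.89%) gave 1 each. Leaving out 1 egg gave 0 to 1 (background 0.00323% to 1.51%), with the 1 call without control egg 2 (1.47%). Within slide 1, CUST_46658 (-1.06) and CUST_54264 (-1.24) turned to lower in salt eggs. Within slide 2 they were 8.29 higher each, with limma adjusted p of 0.00963 and 0.00841. Both probes were picked for their large difference between salt and control eggs, so these p-values are a description and no support. The 175 members called for spread among control eggs became 112 with quantile normalisation (background 0.473%) and 115 in the authors' table (0.503%). The count was 308 at an unadjusted p under 0.05 (6.24%). It was 0 with a prior that was not robust and 0 with slide as a block (0% for both). Without 1 control egg it was 185 to 259 (1.87% to 3.40%). The 195 members called for slide became 323 at an unadjusted p under 0.05 (background 13.6%). Leaving out 1 control egg left 1 egg on its slide, and those counts are not given. With all 4 control eggs kept, the 171 of the largest group ranged from 164 to 193 over the settings. It was 164 with quantile normalisation (background 0.935%) and in the authors' table (0.943%), and 193 at an unadjusted p under 0.05 (13.6%). For the lead probes, the count of 0 in the split of salt eggs 3 and 5 became 8 at an unadjusted p under 0.05 (background 17.6%). It was 175 with the lead at the centre (1.04%) and 0 to 2 without 1 control egg (2 without control egg 3, 0.931%). In the split of salt eggs 1 and 3 the same settings gave 40 (2.67%), 7 (0.451%) and 0 to 21. Of the last, 14 came without control egg 2 (0.946%) and 21 without control egg 4 (1.16%). In the split of salt eggs 3 and 6 the count was 0 to 1 (1 without control egg 4, 0.218%). The cause of these changes was not tested.

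With the replicate number as a block, only numbers 3 and 5 pair eggs of both groups. That fit called 0 members and 0 of all 30940 probes tested, so it could not set members apart. Salt and control eggs of equal number deviated from the means of their groups with a correlation of 0.242 for number 3 and -0.119 for number 5 across eligible probes, which are not independent replicates. The number of arrays, 4 per group and 2 per slide and group, limits what these counts can show.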
